A study of Mus musculus with 2 samples.

Results

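The genes described here are 36 markers of microglia and macrophages, the resident and recruited phagocytes of the brain, taken by symbol from tables of ribosome-bound RNA, and all 36 were found among the 32531 gene symbols of both tables. The RNA came from the ventral striatum of adult mice of the line Stard5-EGFP/Rpl10a (JX5852), untreated controls whose line name gives Stard5 as the driver of ribosomal protein L10a fused to the green fluorescent protein EGFP. Tagged polysomes were pulled down with anti-EGFP antibodies, a method called translating ribosome affinity purification (TRAP), and 2 libraries, replicates 1 and 2 of 1 group, were sequenced from the pulled-down RNA with the stated purpose of profiling neurons. Separate animals, pools or repeat preparations as the origin of the replicates are not told by the labels, so their spread may be technical. All mice carried the tag, from a single transgenic line, and no library of input RNA or of another line was analysed here. Whether a microglial read came from a cell that carries the tag or from untagged RNA that came along with the beads therefore cannot be told apart.

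Microglia arise from yolk sac progenitors, depend on signalling through the receptor Csf1r, and survey the brain with processes guided by purinergic and chemokine receptors. Their identity is held by the transcription factors Spi1 (PU.1), Irf8 and Sall1, and they clear debris and synapses with complement, Fc and TREM2 receptors that signal through small adaptor proteins. In the striatum they lie among spiny projection neurons, which make several of the ligands that microglial receptors bind.

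The microglia and macrophage genes were present at low levels. Levels are given in CPM, reads per 1000000 reads assigned to genes, and a gene counted as detected when each library held at least 1 CPM. Of the 36 genes, 33 were detected, and 12 reached 10 CPM in both libraries. Together they took 12356 of 25830282 reads in genes in replicate 1, or 0.0478% (Clopper-Pearson 95% interval 0.0470 to 0.0487), and 10033 of 29574781 in replicate 2, or 0.0339% (0.0333 to 0.0346). The median of the 36 genes was 8.60 CPM in replicate 1 and 6.04 CPM in replicate 2, against 23.2 and 22.2 CPM over all 12374 detected genes. Genes that were not detected are left out of the second median but not of the first. Fewer microglia in a sample and less RNA per cell cannot be told apart in these bulk values. The 3 genes that were not detected were the nucleotide receptor gene P2ry6, the mannose receptor gene Mrc1 and the lipopolysaccharide co-receptor gene Cd14.

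**Figure D1:**
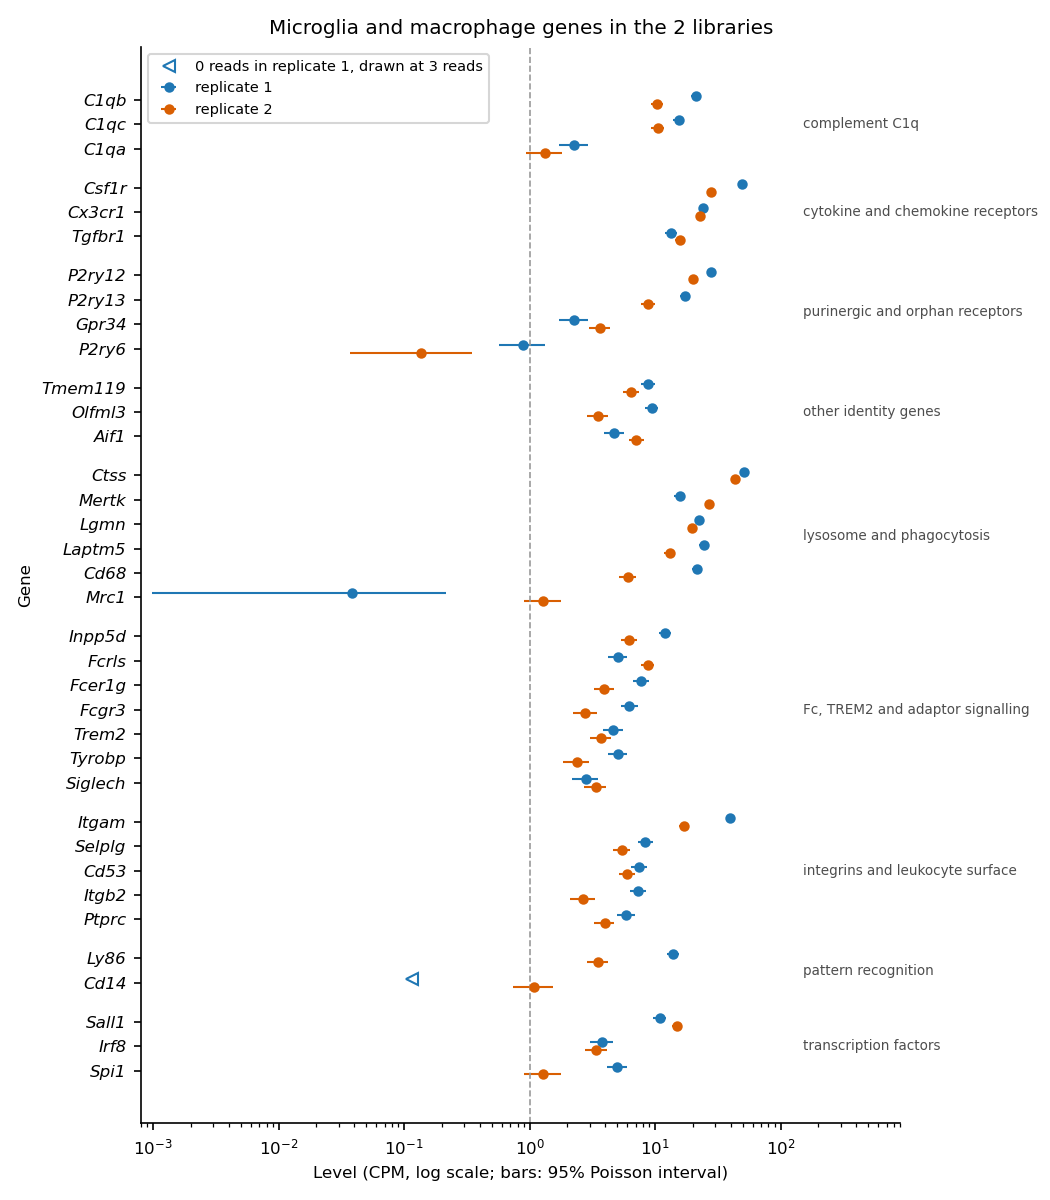
Level of each microglia and macrophage gene in CPM (log axis) in replicate 1 (blue) and replicate 2 (orange), grouped by role, with 95% Poisson intervals as bars and a dashed line at the detection limit of 1 CPM; the open triangle marks Cd14, which had 0 reads in replicate 1. Most genes lay between 1 and 50 CPM, and for 28 of the 36 genes the bars of replicates 1 and 2 lie apart. The share of all genes with bars apart was not counted, so 28 is not a trait of this list. In the binomial test given below, with no fold required, 39.8% of all detected genes passed towards replicate 1 and 39.1% towards replicate 2.

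Genes of other lists named below as highest were picked by mean CPM, whatever their length. The order of the 36 genes was read only from levels per kilobase of annotated exon, since longer transcripts give more reads. On that scale Ctss, the gene of the lysosomal protease cathepsin S, led in both libraries at 37.8 and 32.0 CPM per kilobase, and C1qb, a chain of complement C1q, came second at 19.5 and 9.51. Of the 35 pairs of neighbours in the order by mean level, only 6 kept their order in both libraries, so most neighbouring ranks are not resolved. Across the 36 genes Spearman's rho between the libraries was 0.874 on this scale, a description over genes that share the same 2 libraries. Merged exons count all annotated isoforms, which lowers the value of genes with long rare isoforms: Trem2 ranked 31 of 36 per kilobase of merged exon and 18 per kilobase of its longest coding transcript, and Ly86 ranked 21 and 9. By the mean of the libraries Ctss, C1qb and Cd68 held the first 3 places on both scales, but per kilobase of merged exon Cd68 ranked 3 in replicate 1 and 9 in replicate 2.

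The C1q genes encode the A, B and C chains that assemble into the recognition molecule of the classical complement pathway. They lie next to each other on the minus strand of mouse chromosome 4 in GRCm38: C1qb (ENSMUSG00000036905.8) from 136880129 to 136886187, C1qc (ENSMUSG00000036896.5) from 136889804 to 136893065 and C1qa (ENSMUSG00000036887.5) from 136895917 to 136898803. C1qb had 547 reads in replicate 1 and 306 in replicate 2, or 21.2 and 10.4 CPM. C1qc had 399 and 310 reads, or 15.4 and 10.5 CPM. C1qa had 58 and 39 reads, or 2.25 and 1.32 CPM. The intervals of the libraries lay apart for C1qb and C1qc, both lower in replicate 2, and overlapped for C1qa. C1qa stood far from the other chains, although the finished protein holds all 3 in equal numbers. Of all C1q reads, C1qa took 5.78% (exact binomial 95% limits 4.42 and 7.40) in the first library and 5.95% (4.27 and 8.05) in the second. The share of C1qb was 54.5% (51.3 to 57.6) and 46.7% (42.8 to 50.6), and that of C1qc 39.7% (36.7 to 42.8) and 47.3% (43.4 to 51.2). Per kilobase of exon C1qa remained the lowest at 7.29% and 7.82% of the 3 chains, C1qb took 65.7% and 58.7%, and C1qc took 27.0% and 33.5%. No exon base of the 3 genes overlaps another annotated gene.

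Further along the pathway the tables held little. Of 16 other complement genes 8 were detected. Csmd1, a large membrane protein that inhibits complement, was highest in CPM, at 83.9 and 115 (replicate 1 given first here and in the pairs that follow). The C1q-binding mitochondrial protein gene C1qbp stood at 52.0 and 36.7 CPM, and the membrane inhibitor gene Cr1l at 16.5 and 21.8 CPM. Per kilobase of exon C1qbp, at 18.4 and 12.99, lay above Csmd1, at 4.41 and 6.025. C3, the central component of the cascade, was lowest with 4 reads in replicate 1 and 0 in replicate 2. C1ra and C1s1, the proteases that ride on C1q, had 0 reads in replicate 1 and 5 each in replicate 2.

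Of the cytokine and chemokine receptor genes, Csf1r (chromosome 18, 61100598 to 61132149, plus strand), the receptor that microglia need to survive, had 1282 and 830 reads, or 49.6 and 28.1 CPM. Its exons share 15.1% of their bases with Hmgxb3 on the opposite strand. Cx3cr1, the fractalkine receptor gene, was among the steadiest members, with 622 and 674 reads, or 24.1 and 22.8 CPM. Tgfbr1, a receptor chain for the growth factor TGF-beta that keeps microglia in their resting identity and is also made by many other cells, stood at 13.4 and 15.8 CPM. The intervals of the libraries overlapped for Cx3cr1 and Tgfbr1 and lay apart for Csf1r.

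The ligands of these receptors were read beside them per kilobase of exon. Cx3cl1, which neurons make as a membrane-bound chemokine and the only known ligand of Cx3cr1, stood at 61.0 and 54.9 CPM per kilobase against 5.35 and 5.06 for Cx3cr1. Csf1r, at 8.60 and 4.86 CPM per kilobase, lay above both of its ligand genes in both libraries, narrowly so in replicate 2 for Il34 at 6.94 and 4.68, and widely for Csf1 at 1.99 and 1.74. Tgfb1 was under 1 CPM in both libraries, while Tgfb2 stood at 17.3 and 7.61 CPM and Tgfb3 at 6.04 and 9.57 CPM. Per kilobase Tgfbr1 was at 2.06 and 2.42, against 0.169 and 0.0939 for Tgfb1. Tgfb2 was at 2.995 and 1.31 CPM per kilobase, and Tgfb3 at 1.785 and 2.83. Cd200, a neuronal ligand that restrains microglia, had 121.6 and 122.5 CPM, and its receptor gene Cd200r1 had 0 reads in each library, where a floor of 3 reads equals 0.116 and 0.101 CPM. Of the 21 ligand and partner genes 16 were detected.

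Purinergic receptors read the nucleotides that neurons and damaged cells release, and P2ry12 steers microglial processes towards ADP. P2ry12 (chromosome 3, 59216272 to 59262871, minus strand) had 724 reads in replicate 1 and 592 in replicate 2, or 28.0 and 20.02 CPM. Its neighbour and close relative P2ry13 (59207892 to 59210882) had 448 and 259 reads, or 17.3 and 8.76 CPM. P2ry12 was above P2ry13 in both libraries also per kilobase, at 11.0 and 7.86 against 6.86 and 3.46. Both lie in Med12l, which is transcribed from the opposite strand, and only 0.354% of the exon bases of P2ry12 and 0 of P2ry13 are shared with its exons. P2ry6, which detects UDP and triggers phagocytosis, had 23 and 4 reads, or 0.890 CPM (95% Poisson interval 0.565 to 1.34) and 0.135 CPM (0.0369 to 0.346). Gpr34, a receptor for lysophosphatidylserine that lies on the X chromosome within Cask, went the other way, with 58 and 107 reads, or 2.25 and 3.62 CPM. In the list of 11 related purine genes 5 were detected, led by the ADP receptor gene P2ry1 at 75.6 and 48.3 CPM, the ecto-enzyme gene Nt5e at 28.0 and 27.1 CPM and the channel gene P2rx7 at 7.36 and 11.1 CPM.

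Fc and TREM2 receptors have short tails and signal through adaptors that carry an activation motif, the ITAM. Tyrobp (DAP12), the adaptor of Trem2, had 130 reads in replicate 1 and 70 in replicate 2, or 5.03 and 2.37 CPM. Trem2, a lipid receptor, had 119 and 109 reads, or 4.61 and 3.69 CPM. Fcer1g, the adaptor of Fc receptors, stood at 7.70 and 3.92 CPM, and its partner Fcgr3, a low-affinity receptor for immunoglobulin G, at 6.23 and 2.77 CPM. Both adaptors and Fcgr3 were lower in replicate 2 with intervals apart, while those of Trem2 overlapped. The extracellular part of Fcgr3 is close in sequence to Fcgr2b, so reads of these genes may be split or lost. Inpp5d (SHIP1), a phosphatase that damps ITAM signals, was at 11.96 and 6.22 CPM. The lectin gene Siglech, which also pairs with Tyrobp, was at 2.79 and 3.35 CPM, and the Fc receptor-like gene Fcrls at 5.03 and 8.72 CPM. The intervals lay apart for Fcrls, which was higher in replicate 2, and overlapped for Siglech.

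Of 20 ITAM signalling partners 7 were detected and 3 had 0 reads in both libraries. The highest was Sirpa, a receptor for the "do not eat me" signal CD47 that neurons also carry, at 155 and 169 CPM, followed by Pik3cg at 14.4 and 9.60 CPM, the kinase gene Lyn at 6.43 and 5.95 CPM and the linker gene Blnk at 9.18 and 1.83 CPM. Syk, the kinase that binds the ITAM, was chosen after its values were seen: it had 24 and 17 reads, or 0.929 and 0.575 CPM.

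Integrins and leukocyte surface proteins anchor these cells and mark the white blood cell lineage. Itgam, which encodes CD11b, the alpha chain of complement receptor 3, had 1026 reads in replicate 1 and 501 in replicate 2, or 39.7 and 16.9 CPM. Itgb2 (CD18), its beta chain, had 190 and 79 reads, or 7.36 and 2.67 CPM. Itgam took 84.4% (82.2 to 86.4) and 86.4% (83.3 to 89.1) of the reads of the pair, so both chains were lower in replicate 2 to a similar degree. Of the exon bases of Itgam 68.7% are also annotated to Gm49368 on the same strand, so its count may be incomplete or shared. Selplg, the ligand of P-selectin, stood at 8.36 and 5.44 CPM, the tetraspanin gene Cd53 at 7.47 and 6.02 CPM and Ptprc, which encodes CD45, at 5.88 and 3.96 CPM. Among 12 relatives 4 were detected, led by the widely used beta chain gene Itgb1 at 26.2 and 21.2 CPM. Itgax, Fcgr4 and Fcer1a, chosen after their values were seen, had 0 reads in both libraries.

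The 6 lysosomal and phagocytic genes ranged from the first place per kilobase of exon, Ctss, to the last, Mrc1. Ctss had 1325 and 1287 reads, or 51.3 and 43.5 CPM. Lgmn, the protease legumain that activates cathepsins, stood at 22.4 and 19.7 CPM, and Laptm5, a lysosomal membrane protein of white blood cells, at 24.3 and 13.1 CPM. Cd68, the lysosomal glycoprotein used to stain macrophages, had 554 and 179 reads, or 21.4 and 6.05 CPM, a wider gap than for the other lysosomal genes that were detected. Mertk, a receptor for dying cells that astrocytes also make, was higher in replicate 2, with 407 and 799 reads, or 15.8 and 27.0 CPM. Per kilobase its relative Tyro3 lay above it at 12.5 and 8.48 against 3.63 and 6.23 for Mertk, and Axl below it at 0.262 and 2.20. The bridging ligand genes Gas6 and Pros1 were at 15.9 and 16.4 CPM and at 3.76 and 6.15 CPM.

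Genes of pattern recognition and of macrophages at the brain's borders were thin or uneven. Ly86 (MD-1), a secreted partner of the receptor Cd180, had 360 and 103 reads, or 13.9 and 3.48 CPM. Cd14 had 0 reads in replicate 1 and 32 in replicate 2, or 1.08 CPM, so it was at least 9.49-fold higher in replicate 2 against a floor of 3 reads in replicate 1. Mrc1 (CD206), which marks perivascular and meningeal macrophages, had 1 and 38 reads, or 0.0387 and 1.29 CPM, a ratio of 33.8 with a counting interval of 5.71 to 1369. These jumps were not rare in the tables: of 3320 genes whose higher library held 20 to 99 reads, 31.1% had 3 reads or fewer in the other. Of 11 border macrophage genes only Cd163, a scavenger receptor for haemoglobin, at 17.7 and 10.01 CPM, and Stab1, at 1.01 and 1.28 CPM, were detected. F13a1 had 4 and 75 reads and Folr2 0 reads in both libraries.

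The transcription factor genes did not follow each other. Spi1, the master regulator of the myeloid lineage, had 129 and 38 reads, or 4.99 and 1.28 CPM. Irf8, its binding partner, had 97 and 100 reads, or 3.76 and 3.38 CPM, with overlapping intervals. Sall1, a zinc finger factor that sets microglia apart from other macrophages, had 280 and 443 reads, or 10.8 and 15.0 CPM. Thus Spi1 was higher in replicate 1, Sall1 in replicate 2, and Irf8 was alike within counting error. In the list of 14 other myeloid factors 9 were detected, but the leaders Mef2a at 437 and 532 CPM and Mef2c at 253 and 412 CPM are also neuronal genes.

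Among the remaining identity genes, Tmem119, a membrane protein of resting microglia, stood at 8.83 and 6.46 CPM with 228 and 191 reads. Aif1, the gene of the widely stained calcium-binding protein IBA1, was higher in replicate 2, at 4.68 and 7.07 CPM with 121 and 209 reads. Olfml3, a secreted matrix protein, was higher in replicate 1, at 9.37 and 3.48 CPM with 242 and 103 reads.

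A shared sequence feature was looked for in the promoters, because PU.1 binds an ETS motif with the core GAGGAA. Promoter windows of 250 bases before to 50 bases after the start, from RefSeq on GRCm38.p6, were found for 26 of the 36 genes, in 33 windows. The letters GAGGAA, on either strand, occurred in a window of 17 of these 26 genes (65.4%), against 31.2% of all 27025 genes with a window. The longer GAGGAAGT, which contains the core, occurred in 4 of the 26 (15.4%), against 3.69% of all genes. The composite ETS-IRF element, at which PU.1 pairs with Irf8, was matched in 1 of the 26, Cd68, against 3.16% of all genes. In all 9 motifs were searched, and a match is a string of letters, not a bound site. AGGAAGT occurred in 38.5% of the 26 genes (10.7% of all genes), GGAAGT in 53.85% (26.55%) and AGGAAC in 30.8% (20.3%). TATAAA occurred in 23.1% (15.7%), TGTGGTT in 7.69% (6.09%) and TGAGTCA in 3.85% (5.95%). Whether the share of GAGGAA stands apart from these was not tested. To show where the core falls, 180 bases before the start are printed for Ctss and C1qb, the members with the highest levels per kilobase, for Itgam and for Trem2, with the core in capitals. They cover chr3:95526606-95526785 (plus strand), chr4:136886201-136886380 (minus), chr7:128062460-128062639 (plus) and chr17:48346221-48346400 (plus), and are written 5′ to 3′ on the strand of the gene.
Ctss: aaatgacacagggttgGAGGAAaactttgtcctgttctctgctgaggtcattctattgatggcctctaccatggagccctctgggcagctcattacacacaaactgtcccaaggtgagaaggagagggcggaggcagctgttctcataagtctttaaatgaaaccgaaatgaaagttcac
C1qb: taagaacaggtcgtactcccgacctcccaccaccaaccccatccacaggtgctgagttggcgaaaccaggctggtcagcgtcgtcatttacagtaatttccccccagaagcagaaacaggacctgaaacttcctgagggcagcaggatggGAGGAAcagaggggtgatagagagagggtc
Itgam: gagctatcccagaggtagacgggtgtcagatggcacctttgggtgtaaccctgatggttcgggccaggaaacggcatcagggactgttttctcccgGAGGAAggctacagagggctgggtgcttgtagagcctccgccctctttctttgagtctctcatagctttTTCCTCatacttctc
Trem2: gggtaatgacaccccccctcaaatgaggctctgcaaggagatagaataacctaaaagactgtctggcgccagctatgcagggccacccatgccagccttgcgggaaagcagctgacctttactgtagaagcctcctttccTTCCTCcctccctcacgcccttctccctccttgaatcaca
The core begins 164 bases before the start in Ctss and 30 bases before it in C1qb. Itgam holds it at 84 bases and, as its reverse complement TTCCTC, at 15 bases before the start, and Trem2 holds the reverse complement at 40 bases. The printed stretches all hold the core and so do not stand for the list. Within the same 180 bases Cd68, P2ry12, Lgmn, C1qc, Mertk, Cx3cr1, Irf8 and Sall1, among others, hold none.

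Other genes that microglia are known for were measured beside the 36. Of 38 further microglia genes 27 were detected, at a median of 4.92 CPM over all 38. The highest were Cst3 at 218 and 186 CPM, Sparc at 83.9 and 147 CPM and Bin1 at 60.2 and 53.8 CPM, all of which neurons or astrocytes make too, and the actin regulator gene Coro1a at 31.3 and 25.1 CPM. Mpeg1, chosen after its values were seen as a gene more restricted to microglia, stood at 22.8 and 16.4 CPM. Adgre1, which encodes an adhesion receptor used as a macrophage marker, was at 1.86 and 1.08 CPM. Genes of activated states were detected in part. Of 18 genes of the disease-associated state, 8 were detected, led in mean CPM by Ctsb, Ctsd, Apoe and Lpl, which other brain cells express. Cst7, Itgax, Clec7a, Lgals3 and Ch25h had 0 reads in both libraries. Of 15 genes that dissection induces in microglia 5 were detected, with Ier3 highest at 9.83 and 3.35 CPM, and Ccl2, Ccl3 and Ccl4 had 0 reads. Of 7 MHC class II genes 2 were detected, H2-DMa at 12.4 and 6.83 CPM and the invariant chain gene Cd74 at 6.89 and 1.66 CPM. Of 12 interferon response genes 4 were detected.

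Markers of blood leukocytes were near 0 apart from Cd4. None of 13 monocyte and neutrophil genes was detected, 6 of them had 0 reads in both libraries, and their summed level was 0.542 and 2.30 CPM, against 478 and 339 CPM for the 36 genes. Retnlg, a gene of neutrophils, was highest of them with 0 and 49 reads. Of 12 lymphocyte genes found 10 had 0 reads in both libraries, among them Cd3e and, chosen after its values were seen, Cd79a. Only Cd4, a T cell co-receptor gene, was detected, at 102 and 73.0 CPM, and it made up nearly all of the list's summed 102.2 and 73.07 CPM. Lck had 5 and 2 reads.

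The libraries differed in the level of many of the genes, most often with the higher level in replicate 1. Each detected gene was compared by a 2-sided exact binomial test on its reads, with library sizes scaled by TMM, a trimmed mean of log ratios, and was called at a Benjamini-Hochberg adjusted p below 0.05 over all 12374 genes and at least a 2-fold ratio. The test sets 2 libraries of a single group against each other and knows only counting error, so it says nothing of a condition. Of the 33 detected genes 9 were called higher in replicate 1, against 7.78% of all genes, and 0 were called higher in replicate 2, against 9.57% of all genes (17.4% in either direction). At an adjusted p below 0.05 with no fold required the counts were 21 and 6, but 39.8% and 39.1% of all genes then passed, so that test alone separates little. The median log2 ratio, replicate 2 over replicate 1, was -0.55 over the 33 genes and 0.00 over all genes, and 26 of the 33 lay below 0.

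The 9 genes were Ly86 at a log2 ratio of -1.98 (3.93-fold higher in replicate 1), Spi1 at -1.93, Cd68 at -1.80, Itgb2 at -1.44, Olfml3 at -1.40, Itgam at -1.20, Fcgr3 at -1.14, Tyrobp at -1.06 and C1qb at -1.01. Their adjusted p ran from 1.88e-55 for Itgam to 7.32e-07 for Tyrobp. Just short of a 2-fold ratio were P2ry13 at -0.96 and Fcer1g at -0.95. At the other end stood Fcrls at 0.82, Mertk at 0.80, Gpr34 at 0.71, Aif1 at 0.62 and Sall1 at 0.49. Cx3cr1, at -0.05 (adjusted p = 0.543), and Irf8, at -0.12 (adjusted p = 0.605), did not differ beyond counting error in the binomial test. The 33 ratios spanned -1.98 to 0.82.

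**Figure D2:**
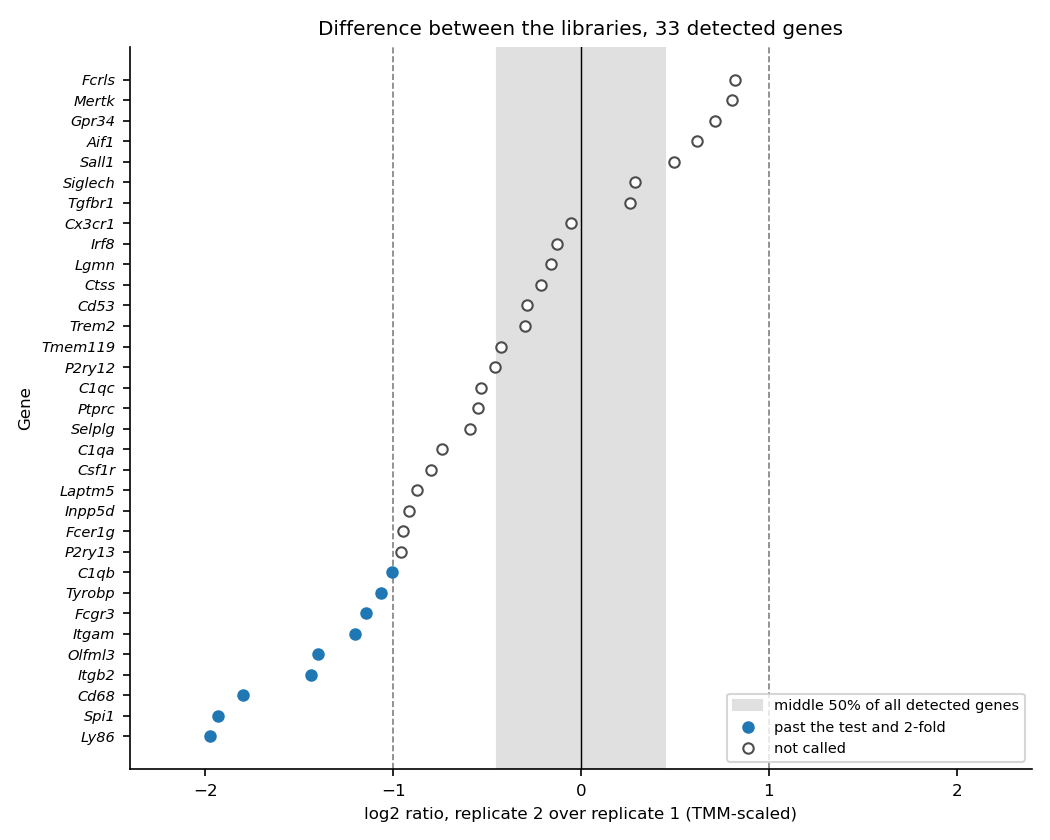
Log2 ratio of replicate 2 over replicate 1, TMM-scaled, for the 33 detected microglia and macrophage genes, with filled points for the 9 genes past the binomial test and a 2-fold ratio, dashed lines at 2-fold and a grey band for the middle 50% of all detected genes. The filled points all lie on the side of replicate 1, from C1qb at -1.01 to Ly86 at -1.98.

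The level of a gene bears on such calls. Among all detected genes with a mean of 3 to 10 CPM, 15.2% were called higher in replicate 1 and 19.9% in replicate 2, and 17 of the 33 genes fell in this range, with 6 called higher in replicate 1 and 0 in replicate 2. From 10 to 30 CPM the shares of all genes were 9.03% and 9.37%, and 3 of 12 members were called higher in replicate 1 and 0 in replicate 2. Above 100 CPM only 2.85% of all genes were called in either direction, and none of the 36 genes reached that level.

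Transcript length moved with the ratio as well. The exons of the 36 genes had a median of 2791 bases, against 4836 for all detected genes, and short genes were lower in replicate 2: the median log2 ratio of all genes was -0.76 below 1000 bases, -0.44 from 1000 to 2000 bases and 0.12 at 4500 bases or more. Tyrobp and Fcer1g, with 667 and 874 exon bases, lay near that trend, at -0.28 and -0.26 once it was removed. With the trend removed the median of the 33 genes was -0.26. Calls on these values, an alternative chosen after seeing the data, covered 5.63% of all genes with a length towards replicate 1 and 9.19% towards replicate 2. Ly86 (-1.87), Spi1 (-1.71), Olfml3 (-1.47), Itgb2 (-1.26), Cd68 (-1.25), Itgam (-1.22) and Inpp5d (-1.03) then lay more than 2-fold towards replicate 1. Fcrls (1.10), Aif1 (1.08) and Gpr34 (1.03) lay more than 2-fold towards replicate 2. The part of transcript length in the counts was not tested further.

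**Figure D3:**
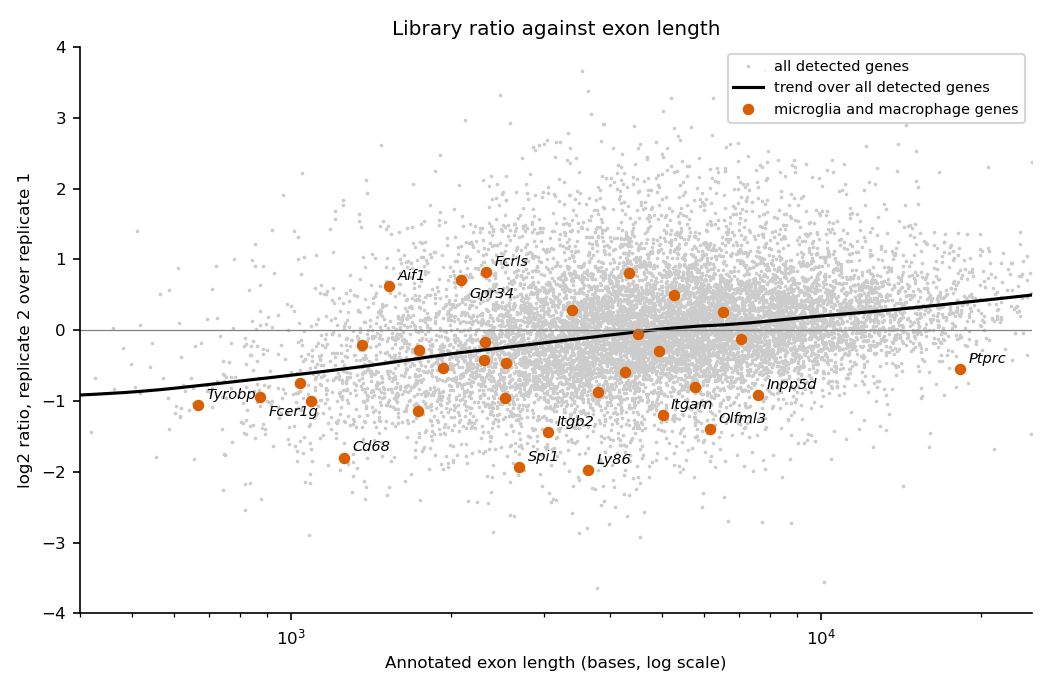
Log2 ratio of replicate 2 over replicate 1 against annotated exon length (log axis) for all detected genes (grey), their smoothed trend (black line) and the 33 detected microglia and macrophage genes (orange). The shortest members, Tyrobp and Fcer1g, lie near the trend, while Ly86 and Spi1 lie far below it and Aif1, Gpr34 and Fcrls above it.

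The 38 other microglia genes did not share this direction: over the 27 detected the median log2 ratio was -0.02, with 15 below 0 and 12 above, and 4 were called higher in replicate 1 and 2 in replicate 2. The value of -0.55 therefore describes the 33 detected genes of the chosen list and not microglia genes at large. For the counts of calls given here, the shares over all detected genes were 7.78% towards replicate 1 and 9.57% towards replicate 2. Of 12 astrocyte genes 8 were called higher in replicate 2 and 0 in replicate 1; the median log2 ratio was 1.47 and the summed level 1181 and 3499 CPM. Of 12 oligodendrocyte genes 5 were called higher in replicate 2 and 0 in replicate 1, with a median of 0.84 and sums of 985.5 and 1540 CPM. The 36 microglia and macrophage genes summed to 478 and 339 CPM. Of 7 detected endothelial and mural genes 1 was called higher in replicate 1 and 0 in replicate 2, with a median of -0.23, and 1 of 16 spiny neuron genes was called higher in replicate 1, with a median of -0.35. The 7 members with a ratio above 0, the direction of the astrocyte genes, were Fcrls, Mertk, Gpr34, Aif1, Sall1, Siglech and Tgfbr1. The part of astrocyte RNA in their values was not tested.

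Beside markers of other cells, the median per kilobase of exon of the microglia and macrophage genes lay below those of neurons, oligodendrocytes and astrocytes. This held in both libraries. It lay above the other lists in both, apart from oligodendrocyte precursors, where the order differed between the libraries. In replicate 1 the median was 3.32 CPM per kilobase against 2.66 for precursors, and in replicate 2 it was 2.82 against 4.69. By the mean of the libraries it was 2.77 over the 36 genes, against 68.2 for spiny projection neurons and 7.79 for oligodendrocytes. It was 5.82 for astrocytes, 3.63 for oligodendrocyte precursors, 1.26 for red blood cells (4 genes found) and 0.660 for endothelial and mural cells. Fibroblasts had a median of 0.132, and ependymal and choroid plexus cells one of 0. Over all detected genes, a set that leaves out undetected ones, it was 5.31. On the log2(CPM + 1) scale the median of the 36 genes minus that of the astrocyte list was -0.64 in replicate 1 and -2.47 in replicate 2. The same difference was -1.04 and -2.49 for the oligodendrocyte list, and 1.15 and 1.08 for the endothelial and mural list. These differences are over different genes and carry no test. Border macrophage genes had a median of 0.0467 CPM per kilobase, with 2 of 11 detected, although Cd163 was among the detected genes.

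**Figure D4:**
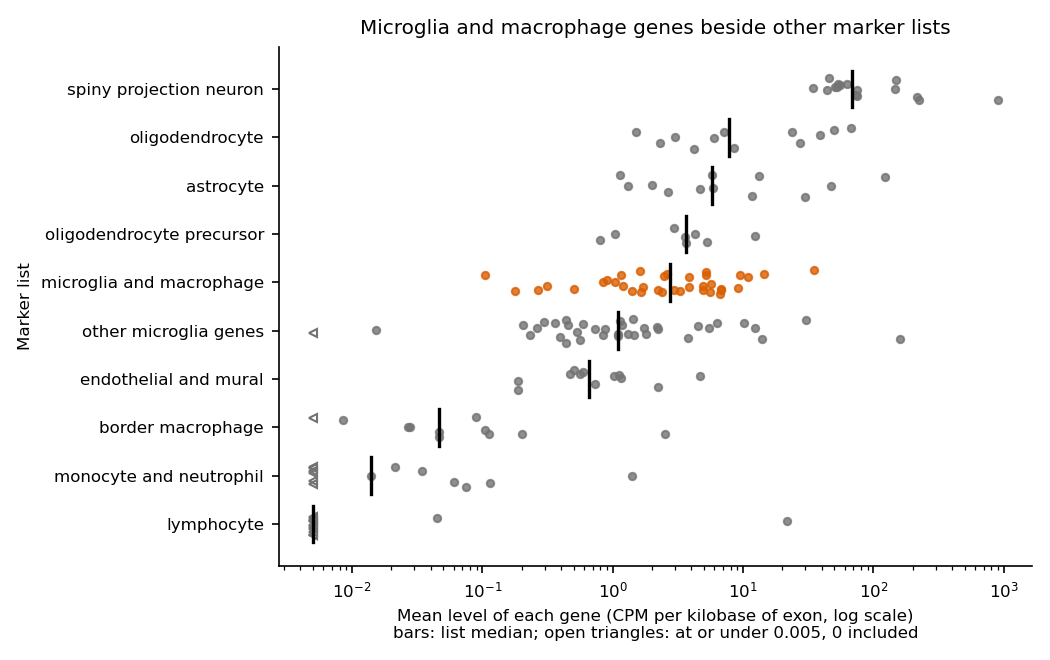
Mean level of each gene in CPM per kilobase of exon (log axis) in the microglia and macrophage list (orange) and 9 other marker lists (grey), with list medians as black bars and genes at or under 0.005 as open triangles at the left. The microglia and macrophage median of 2.77 lies below the spiny neuron median of 68.2 and above the border macrophage median of 0.0467.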

How the data were processed

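RNA bound to tagged ribosomes was sequenced in 2 libraries of 1 group. Raw read counts by gene symbol were deposited, made with STAR 2.0.0e and HTSeq on mouse build mm10, per the submitters' processing notes. The annotation and the strand setting were not given in the sources used here. Reads of overlapping genes on opposite strands therefore cannot be told apart. Lines without a gene name (6 per file, with 52.5% and 46.6% of the file's total) were dropped. CPM was computed over named genes. Depth was 25830282 and 29574781 reads in genes. Intervals (exact Poisson, Clopper-Pearson) and floors of 3 reads take in counting error alone, because PCR copies cannot be recognised without molecular identifiers.

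TMM factors came from edgeR 4.0.16 on detected genes. The binomial test ran in scipy 1.17.1. It was tried on simulated Poisson counts, which hold counting error alone, so the trial says nothing of spread between libraries. Exon lengths and coordinates came from GENCODE M21 (GRCm38), matched by symbol: 11465 of 12374 detected genes (92.7%) had a length. The trend on length was a lowess curve with a fraction of 0.3. The members and lists were chosen with earlier results of these data known. All 36 members are given. For other lists the plan was to name the 4 highest genes by mean CPM and the lowest, but it was followed only in part. Several lists are given by counts or medians alone. Further genes of those lists were named as partners of a member or after their values were seen. Some genes of those lists are not reported here. Of 332 listed genes 328 were found. Alternatives covered scaling, filters, fold, length, members and each library alone.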

Additional observations from a re-analysis of the deposited data

How the results depend on the processing

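With 2 libraries of a single group no spread beyond counting error enters any test here, and a member with under 100 reads in a library rests on few molecules. At 5 CPM in both libraries 19 members were detected in place of 33, and the range over single libraries was 33 to 35. The list median of 6.89 CPM was 2.77 per kilobase of exon and, chosen after seeing the data, 3.77 per kilobase of the longest coding transcript. It lay between 6.04 and 8.60 CPM in single libraries. The median log2 ratio of -0.55 became -0.26 once the exon-length trend was taken out, and ran from -0.67 to -0.55 under the other settings. The 9 members called higher in replicate 1 became 16 at 1.5-fold (18.9% of all genes) and 21 by adjusted p alone (39.8% of all genes). They were 6 to 10 under other scalings and filters (6.79% to 10.3% of all genes). With the length trend removed they were 7 (5.63% of all genes with a length). The 0 called higher in replicate 2 became 4 at 1.5-fold (19.3% of all genes) and 6 by adjusted p alone (39.1% of all genes). With no filter on low counts they became 2, where 20.3% of all genes passed. With the length trend removed, a setting chosen after seeing the data, they became 3 (9.19% of all genes with a length). Per kilobase of exon the mean shares of C1q reads were 7.56% for C1qa, 62.2% for C1qb and 30.2% for C1qc, in place of 5.87%, 50.6% and 43.5%. In single libraries they ran from 5.78% to 5.95%, 46.7% to 54.5% and 39.7% to 47.3%. Per kilobase the difference of list medians was -0.72 in place of -1.56 for astrocytes and -1.05 in place of -1.76 for oligodendrocytes. For endothelial and mural cells it was 1.24 in place of 1.12. None of these differences changed sign. The oligodendrocyte precursor list was not among them, and its order against the members per kilobase differed between the libraries. The share of reads in the members ran from 0.0339% to 0.0478% in single libraries. No paired analysis was possible because the series has 1 group.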
